A study of Mus musculus with 2 samples.

Results

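The interleukin-1 family genes described here are 5 ligand genes, namely Il1a, Il1b, Il18, Il1f9 and the antagonist gene Il1rn, and 5 receptor genes, namely Il1r1, Il1r2, Il1rap, Il1rl1 and Il18r1. They were taken by symbol, and all 10 are among the 31253 genes counted in both libraries. The cells were live CD45+ cells sorted from tumours of MB49, a bladder cancer line of the mouse. Their RNA was captured with BD Rhapsody microwells, which tag the 3′ end of each mRNA with a unique molecular identifier (UMI). There was 1 library labelled wt and 1 labelled Lcn2-ko. The tumours came from chimeric mice, made by giving lethally irradiated female hosts male marrow that was wild type or Lcn2-deficient, so any radioresistant host cells kept their own genotype in both groups. Elsewhere the protocol mentions both male and female tumour-bearing mice, the sex label is female for both, and neither an age nor the number of mice is given. The series asks what Lcn2, a secreted lipocalin of neutrophil granules that binds iron-loaded siderophores, does for the diversity and function of tumour neutrophils.

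IL-1α and IL-1β bind the receptor encoded by Il1r1, which then recruits the shared chain encoded by Il1rap and signals through MyD88 to NF-κB. The antagonist encoded by Il1rn occupies that receptor without signalling, and the decoy receptor encoded by Il1r2 binds IL-1 without passing a signal on. Myeloid cells are the main makers of IL-1 in inflamed tissue, while the related receptors ST2 (Il1rl1) and IL-18 receptor (Il18r1) are known on mast cells and lymphocytes.

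Filters left 7397 cells in the wt library and 7241 in the other, from libraries of 42069099 and 40959725 UMIs and medians of 3574.5 and 3570 UMIs per barcode. Cells were put into 11 classes by 8 marker genes each, none of them an interleukin-1 family gene, and by a matching cluster; a class name below means cells with the markers of that type. No cluster was named monocyte: all 113 and 180 cells of that class lie in 1 cluster named for macrophages, where monocyte was the second name, beside 67 and 81 cells of the macrophage class, and the markers alone tell them apart. Left without a class were 17.5% and 17.6% of kept cells, and 12.7% and 12.3% of classed cells held just enough markers to enter. The loss was uneven, as cluster sizes over both libraries, before likely doublets were left out, show. Clusters named macrophage held 989 and 737 cells, of which 607 were classed as macrophages and 293 as monocytes. The Cd209a cluster held 520 cells and its class 207. The cross-presenting cluster held 745 and its class 686. Despite the CD45 sort, 1496 and 1350 cells carried keratin or matrix markers and no UMI of Ptprc, the gene of CD45, and they are described as tumour or stromal cells. The 2 libraries shared 4 cell barcodes. Lcn2 itself was counted at 226 CPM (95% interval 196 to 260) in wt neutrophils and 185 CPM (146 to 231) in those of the Lcn2-ko-labelled library, and at 18.6 and 27.2 CPM in tumour or stromal cells. The intervals for neutrophils overlap, the labels do not say which exons were deleted, and a 3′ tag outside a deleted exon checks nothing.

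Levels are UMIs scaled to a class total of 1000000 (CPM), and since each label had a single library, no value has a replicate check and no test was possible. The 95% intervals are exact Poisson intervals for levels, Clopper-Pearson intervals for shares of cells and exact conditional binomial intervals for ratios, and they cover counting error only. Because a UMI from free RNA can fall in any cell, shares of cells are given beside those in a class that should lack the gene, and shares described as thinned were taken after cutting each cell to 800 UMIs.

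On the mm10 genome the 10 genes fall into 4 chromosomes. Il1r2 (40074079 to 40125231), Il1r1 (40225080 to 40317257), Il1rl1 (40429570 to 40465415) and Il18r1 (40465552 to 40500854) lie in this order on the plus strand of chromosome 1. Chromosome 2 holds Il1f9 (24186476 to 24193568, plus), Il1rn (24336853 to 24351494, plus), Il1a (129299610 to 129309972, minus) and Il1b (129364570 to 129371139, minus). Il18 is at 50554827 to 50581840 on chromosome 9 and Il1rap at 26581704 to 26730117 on chromosome 16, both on the plus strand. Lcn2 is on chromosome 2 too, 8.20 Mb from Il1f9, 8.05 Mb from Il1rn and 96.9 Mb from Il1a.

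The promoters of 3 genes that were highest in neutrophils, monocytes and macrophages, in that order, and of the gene that was highest in mast cells, are printed to show what lies before their starts. All 10 genes had an entry in the RefSeq promoter table (build GRCm38.p6), with 16 start sites in all. Each sequence is the 250 bases before an annotated start, 5′ to 3′ on the strand of the gene, and capitals mark matches to 5 short patterns searched on both strands. The patterns were GGG, any 5 bases and CC for NF-κB, TTGCNNAA for C/EBP, TGANTCA for AP-1, GAGGAA for PU.1 and AGATAA for GATA factors, and matches may overlap. Of 32851 promoters of the same length, 45.8% held the first, 9.56% the second, 6.75% the third, 23.3% the fourth and 10.0% the last.
Il1a, chr2:129309973-129310222, minus strand: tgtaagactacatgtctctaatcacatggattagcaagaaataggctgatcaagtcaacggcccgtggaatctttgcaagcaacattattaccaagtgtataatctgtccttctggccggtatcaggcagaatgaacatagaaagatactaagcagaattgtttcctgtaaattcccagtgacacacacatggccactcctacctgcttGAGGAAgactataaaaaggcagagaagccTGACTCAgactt
Il1b, chr2:129371140-129371389, minus strand: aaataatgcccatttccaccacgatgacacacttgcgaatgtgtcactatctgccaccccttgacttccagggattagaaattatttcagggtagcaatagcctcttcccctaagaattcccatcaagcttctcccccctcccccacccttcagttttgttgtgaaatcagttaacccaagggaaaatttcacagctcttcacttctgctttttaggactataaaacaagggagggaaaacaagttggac
Il1rn, start site 1, chr2:24336610-24336859, plus strand: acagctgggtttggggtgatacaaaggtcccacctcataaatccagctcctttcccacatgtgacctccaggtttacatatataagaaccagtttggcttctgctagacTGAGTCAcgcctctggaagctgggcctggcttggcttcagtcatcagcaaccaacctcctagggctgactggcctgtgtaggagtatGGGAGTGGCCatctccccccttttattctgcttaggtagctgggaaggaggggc
Il1rl1, start site 1, chr1:40429320-40429569, plus strand: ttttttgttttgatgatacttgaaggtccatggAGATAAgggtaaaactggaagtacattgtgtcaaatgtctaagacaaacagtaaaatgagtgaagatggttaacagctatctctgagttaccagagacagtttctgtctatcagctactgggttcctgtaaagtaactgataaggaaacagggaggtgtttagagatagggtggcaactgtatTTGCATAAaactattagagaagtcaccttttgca
Il1rl1, start site 2, chr1:40439379-40439628, plus strand: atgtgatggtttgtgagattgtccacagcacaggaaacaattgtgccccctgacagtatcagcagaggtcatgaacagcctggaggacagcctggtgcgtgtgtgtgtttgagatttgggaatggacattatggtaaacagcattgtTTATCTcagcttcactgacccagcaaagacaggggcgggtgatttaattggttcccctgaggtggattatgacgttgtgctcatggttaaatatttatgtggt
The Il1a window held the PU.1 letters 41 bases and the AP-1 letters 12 bases before its start. The window of Il1rn start site 1 held AP-1 letters at 141 and NF-κB letters at 54 bases. Il1rn start sites 2 and 3 are not printed. Their windows begin at 24345041 and 24345121, and the former matched none of the patterns. The latter held NF-κB letters at 51 bases and no AP-1 letters. The Il1b window matched none of the patterns, which says only that these letters are not in this window. The first Il1rl1 window held GATA letters at 217 and C/EBP letters at 34 bases before the start, and the second held GATA letters at 103 bases on the minus strand. A match is a run of letters and not a shown binding site, and 3′ UMIs do not tell which start was used.

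By CPM, both IL-1 ligand genes were highest in neutrophils, then in monocytes, then in macrophages, in each library. Il1b, the gene of the secreted ligand IL-1β, stood at 17046 CPM (16771 to 17324) in wt neutrophils and 18445 CPM (18032 to 18865) in those of the Lcn2-ko-labelled library. Monocytes followed at 12469 and 13128 CPM, then macrophages at 4965 and 5844 CPM. Each of these steps was wider than the counting intervals in both libraries. CPM sets a gene against the RNA of its class, and median depth was 8346 and 8425 UMIs in macrophages against 1395 and 1243 in neutrophils. Of the Il1b UMIs in the compared classes, 531 and 306 neutrophils held 33.6% and 19.2%, and 297 and 310 macrophages 29.7% and 39.1%. For Il1a the shares were 42.0% and 23.9% in neutrophils and 40.4% and 47.4% in macrophages. These shares leave out cells without a compared class, which held many UMIs of both genes. Over all kept cells there were 67023 and 66116 Il1b UMIs, of which neutrophils held 14686 and 7588 and macrophages 13003 and 15431. All kept cells held 7963 and 7782 Il1a UMIs, neutrophils 2177 and 1100, and macrophages 2094 and 2182. Il1b UMIs were found in 96.4% and 94.8% of neutrophils (median depth 1395 and 1243 UMIs). T cells, a class that should lack it, had them in 13.4% and 15.4% (2651 and 2757 UMIs). Thinned to equal depth, the shares were 95.9% and 95.4% in neutrophils and 4.80% and 5.01% in T cells.

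Dendritic cells held less Il1b and differed among themselves. The Cd209a class stood at 3898 and 4221 CPM, the mature class with Ccr7 at 3667 and 2788 CPM, and the cross-presenting class with Xcr1 at 1628 and 1221 CPM. The Cd209a and mature classes were not separated by their intervals in wt. T cells (63.8 and 72.5 CPM), NK cells (57.3 and 57.1 CPM) and tumour or stromal cells (33.2 and 43.0 CPM) lay lowest. In T cells, 4 wt cells and 3 cells of the other library with at least 10 Il1b UMIs held 10.3% and 8.94% of the class sum, so most of it was spread thinly.

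Il1a, whose product IL-1α is active as a precursor and acts as an alarm signal when cells die, led in the same 3 classes. It stood at 2527 CPM (2422 to 2635) in wt neutrophils and 2674 CPM (2518 to 2837) in those of the Lcn2-ko-labelled library. Monocytes held 1469 and 1499 CPM, and macrophages 799.5 and 826 CPM. All dendritic, lymphoid, mast and tumour or stromal classes were below 75 CPM, with 16.1 and 14.1 CPM in cross-presenting dendritic cells. The number of Il1a UMIs per Il1b UMI was similar in neutrophils (0.148 and 0.145) and macrophages (0.161 and 0.141), and lower in Cd209a dendritic cells (0.0181 and 0.0106). Within neutrophils the Il1a UMIs were concentrated: the tenth of cells with the most held 50.8% and 52.5% of them, against 27.3% and 26.7% for Il1b.

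Il1f9, also called Il36g, encodes IL-36γ, a ligand of the IL-36 receptor known from epithelia. Here it was a neutrophil gene, at 1059 CPM (991 to 1130) in wt and 1031 CPM (935 to 1134) in the Lcn2-ko-labelled library. UMIs were found in 58.0% and 46.1% of neutrophils, or 45.0% and 41.9% when thinned, against 0.657% and 0.329% of T cells. Macrophages held 38.6 and 20.8 CPM. Monocytes held 0 UMIs in wt, which allows up to 7.58 CPM, and 1 UMI in the other library, although their Il1b and Il1a levels were next to those of neutrophils. Over all kept cells Il1f9 was 33.9 CPM in wt and 18.0 CPM in the Lcn2-ko-labelled library, while neutrophils were 7.18% and 4.23% of those cells and their own Il1f9 level had overlapping intervals.

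Il18, the gene of a ligand that drives interferon-γ production with IL-12, was low everywhere. Monocytes (60.7 and 64.7 CPM) and neutrophils (42.9 and 46.2 CPM) were highest, with intervals that overlap each other. Cross-presenting dendritic cells held 24.2 and 17.8 CPM, tumour or stromal cells 20.5 and 19.0 CPM, and macrophages 16.0 and 17.8 CPM. Because of their number and depth, tumour or stromal cells held 290 and 248 Il18 UMIs, more than any other class compared. T cells, at 1.19 and 3.24 CPM, give the level that a class expected to lack it had.

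The antagonist gene Il1rn followed Il1b in the 3 leading classes. It stood at 4885 CPM (4739 to 5035) in wt neutrophils and 5175 CPM (4958 to 5400) in those of the Lcn2-ko-labelled library. Monocytes held 1691 and 2238 CPM and macrophages 1288 and 1273 CPM. Dendritic classes departed from that pattern: the mature class held 310 and 389 CPM, but the Cd209a class, rich in Il1b, only 62.1 and 104 CPM and the cross-presenting class 21.3 and 18.8 CPM. Tumour or stromal cells held 89.6 CPM (84.7 to 94.7) and 106 CPM (100 to 111), with UMIs in 38.6% and 43.8% of cells at median depths of 8430 and 8701, or 6.69% and 7.22% when thinned, against thinned shares of 2.31% and 2.67% in T cells.

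The number of Il1rn UMIs per Il1b UMI, read only across classes because the genes may be captured unequally, ran over more than 100-fold. Cross-presenting dendritic cells had 0.0131 (0.0102 to 0.0164) and 0.0154, and Cd209a dendritic cells 0.0159 and 0.0245. Neutrophils had 0.287 (0.277 to 0.297) in wt and 0.281 (0.267 to 0.294) in the Lcn2-ko-labelled library, macrophages 0.259 and 0.218, and monocytes 0.136 and 0.170. Tumour or stromal cells were the only class compared above 1, at 2.70 (2.43 to 3.01) and 2.46 (2.23 to 2.71). Those with at least 3 of 4 collagen and matrix genes (Col1a1, Col1a2, Col3a1, Dcn) had 3.71 and 3.12, and the others 2.14 and 1.98. In the same cells the 8 neutrophil markers, all detected, summed to 499 and 438 CPM and the 8 macrophage markers, all detected, to 55.3 and 72.7 CPM. Their part in the Il1rn level was not tested. Regulatory T cells with Klrg1 had 0.913 and 1.5, from 94 and 126 Il1rn UMIs. Those without Klrg1 had 0.957 and 0.863, from 67 and 101 Il1rn UMIs. The counting intervals with and without Klrg1 overlap in each library.

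**Figure D1:**
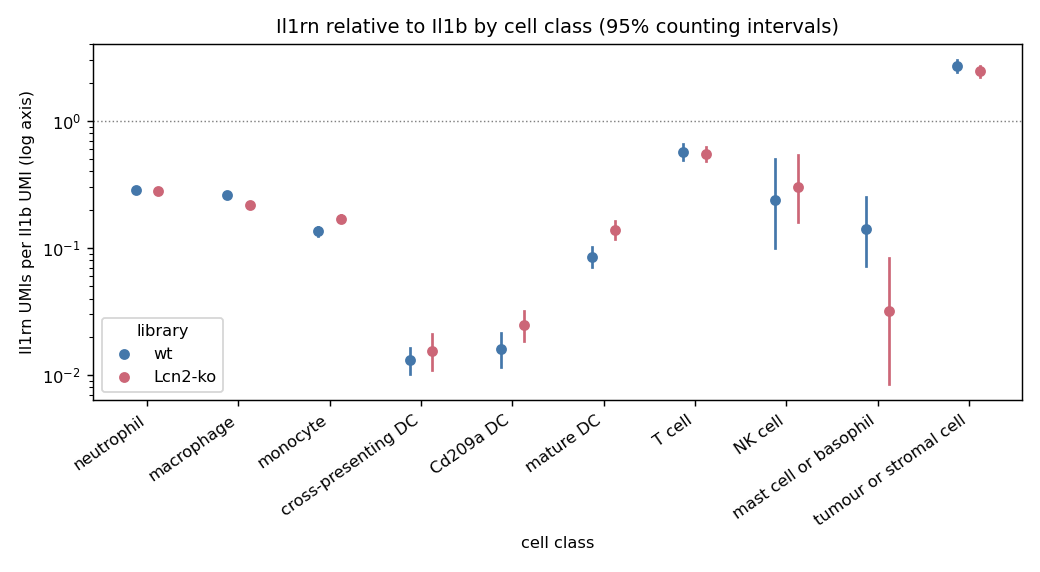
Il1rn UMIs per Il1b UMI (log axis) in the 10 compared classes, with the wt library in blue and the Lcn2-ko-labelled library in red, and bars for 95% counting intervals. Tumour or stromal cells lie at 2.70 and 2.46, neutrophils at 0.287 and 0.281, and cross-presenting dendritic cells at 0.0131 and 0.0154.

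The signalling receptor gene was highest in the compared class where Il1a and Il1b were lowest. Il1r1 stood at 176 CPM (169 to 183) in wt tumour or stromal cells and 164 CPM (157 to 171) in those of the Lcn2-ko-labelled library. It had UMIs in 65.2% and 66.0% of them, or 13.4% and 11.8% when thinned, against 0.622% and 0% of thinned neutrophils. No other compared class was above 18.8 CPM, and neutrophils held 7 and 1 Il1r1 UMIs. Collagen-high tumour or stromal cells held 198 and 180 CPM and the others 159 and 150 CPM. Among T cells, those without Foxp3, Cd4 or Cd8 UMIs held 24.1 and 25.8 CPM, from 24 and 23 UMIs.

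The decoy receptor gene Il1r2 had the opposite distribution. It stood at 2264 CPM (2165 to 2367) in wt neutrophils and 2956 CPM (2792 to 3127) in those of the Lcn2-ko-labelled library. Cd209a dendritic cells were beside them, at 2077 CPM (1973 to 2186) and 2602 CPM (2470 to 2739), with UMIs in 92.7% and 92.9% of cells. Macrophages held 588 and 579 CPM, mature dendritic cells 362 and 376 CPM, monocytes 147 and 489 CPM, and T cells 270 and 312 CPM. Macrophages without a Mrc1 UMI, 41 and 51 cells, held 1307 and 678 CPM against 520 and 568 CPM with it. NK cells, with 13.6 and 17.2 CPM and UMIs in 3.85% and 5.73% of cells at median depths of 3243 and 3163.5, were lowest together with tumour or stromal cells, at 14.1 and 16.0 CPM. Cd209a dendritic cells thus shared a high Il1r2 level with neutrophils while their Il1rn level was among the low ones.

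Set against Il1r1, the decoy gene gave 279 Il1r2 UMIs per Il1r1 UMI in wt neutrophils, from 7 Il1r1 UMIs, and 1216 Il1r2 UMIs to 1 Il1r1 UMI in the other library. The ratio was 96.2 and 61.1 in macrophages and 24.1 and 34.3 in T cells. In tumour or stromal cells it was 0.0800 (0.0689 to 0.0925) and 0.0980 (0.0846 to 0.113). Both libraries therefore placed Il1r1 and Il1r2 in different classes.

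Il1rap, the accessory chain shared by the IL-1, IL-33 and IL-36 receptors, was counted thinly. Neutrophils held 227 CPM (197 to 262) and 194 CPM (154 to 242), from 196 and 80 UMIs, with UMIs in 16.6% and 13.8% of thinned cells. Monocytes held 50.6 and 39.1 CPM. Every other compared class was at or below 12.7 CPM, including the tumour or stromal cells that held most Il1r1 (7.62 and 7.05 CPM) and the mast cells or basophils that held most Il1rl1, with 1 and 0 UMIs.

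Il1rl1 encodes ST2, the receptor for the alarmin IL-33. It stood at 2706 CPM (2550 to 2869) in wt mast cells or basophils and 2622 CPM (2439 to 2816) in those of the Lcn2-ko-labelled library. Of these cells 95.9% and 90.9% held a UMI, with median depths of 5281.5 and 5013, against 3.85% and 6.15% of cross-presenting dendritic cells at 7616 and 8398. T cells came next, at 241 and 242 CPM, and by their number they held 2020 and 2388 UMIs against 1128 and 761 in the mast class. Within the mast class, cells without a Mcpt8 UMI held 2853 and 2848 CPM, and the 10 and 12 cells with Mcpt8, a basophil protease gene, held 1376 and 1601 CPM.

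Il18r1, the ligand-binding chain of the IL-18 receptor, stood at 141 CPM (133 to 149) in wt T cells and 135 CPM (127 to 142) in those of the Lcn2-ko-labelled library. NK cells held 91.9 and 100 CPM, and tumour or stromal cells 92.5 and 74.6 CPM. The remaining compared classes were at or below 44.8 CPM. Of the 10 genes, the B cell class, with 41 and 32 cells and too small to compare, held at most 6 UMIs of any.

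**Figure D2:**
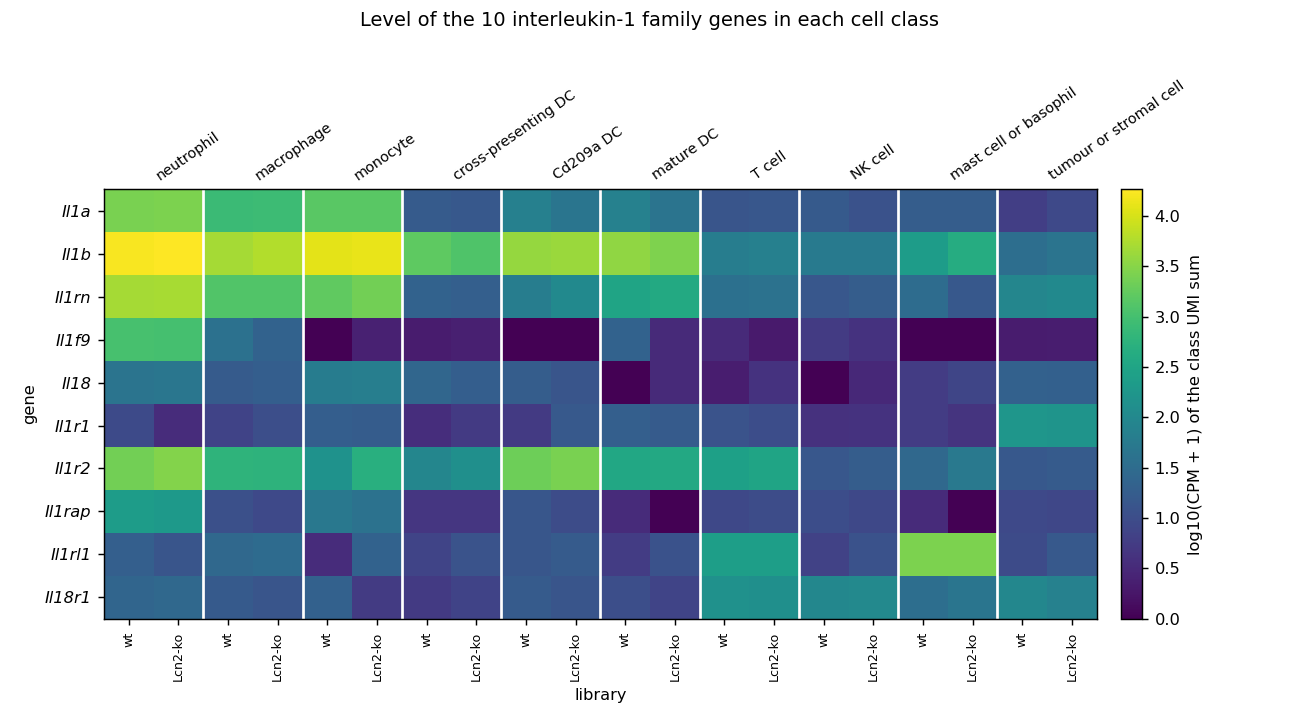
Level of each gene as log10(CPM + 1), by colour, in the 10 compared cell classes, with the wt library on the left and the Lcn2-ko-labelled library on the right of each pair of columns. Il1b is brightest in neutrophils (17046 and 18445 CPM), Il1rl1 in mast cells or basophils (2706 and 2622 CPM) and Il1r1 in tumour or stromal cells (176 and 164 CPM).

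Neutrophils were further divided by markers of 3 states, which overlap in part with the markers of the class. Early neutrophils, named from granule and calprotectin genes such as S100a8 and Retnlg, numbered 216 and 143. Tumour-adapted neutrophils, named from genes such as Inhba, Hilpda and Slc2a1, numbered 111 and 49, and interferon-stimulated ones 53 and 22. Tumour-adapted and interferon-stimulated neutrophils, with fewer than 50 cells in 1 library, were not compared between the labels. Their levels are described within each library, beside those of early neutrophils.

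Il1b and the antagonist gene were ordered differently over these states. Il1b was 17919 and 19387 CPM in early and 12508 and 12479 CPM in tumour-adapted neutrophils. Il1rn was 3539 and 4033 CPM in early against 6289 and 6608 CPM in tumour-adapted neutrophils. Their ratio was therefore 0.197 (0.185 to 0.210) and 0.208 in early neutrophils and 0.503 (0.468 to 0.540) and 0.530 in tumour-adapted ones, with intervals that do not overlap. Il1r2 went with Il1b, at 2638 and 3366 CPM in early against 1150 and 1748 CPM in tumour-adapted cells. Il1a had the order of Il1rn in both libraries. It was 1521 CPM in early and 3188 CPM in tumour-adapted cells in wt, and 2155 and 2881 CPM in the other library. Il1f9 showed little order, at 1153 and 1056 CPM against 916 and 888 CPM. Interferon-stimulated neutrophils held 15954 and 23577 CPM of Il1b.

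**Figure D3:**
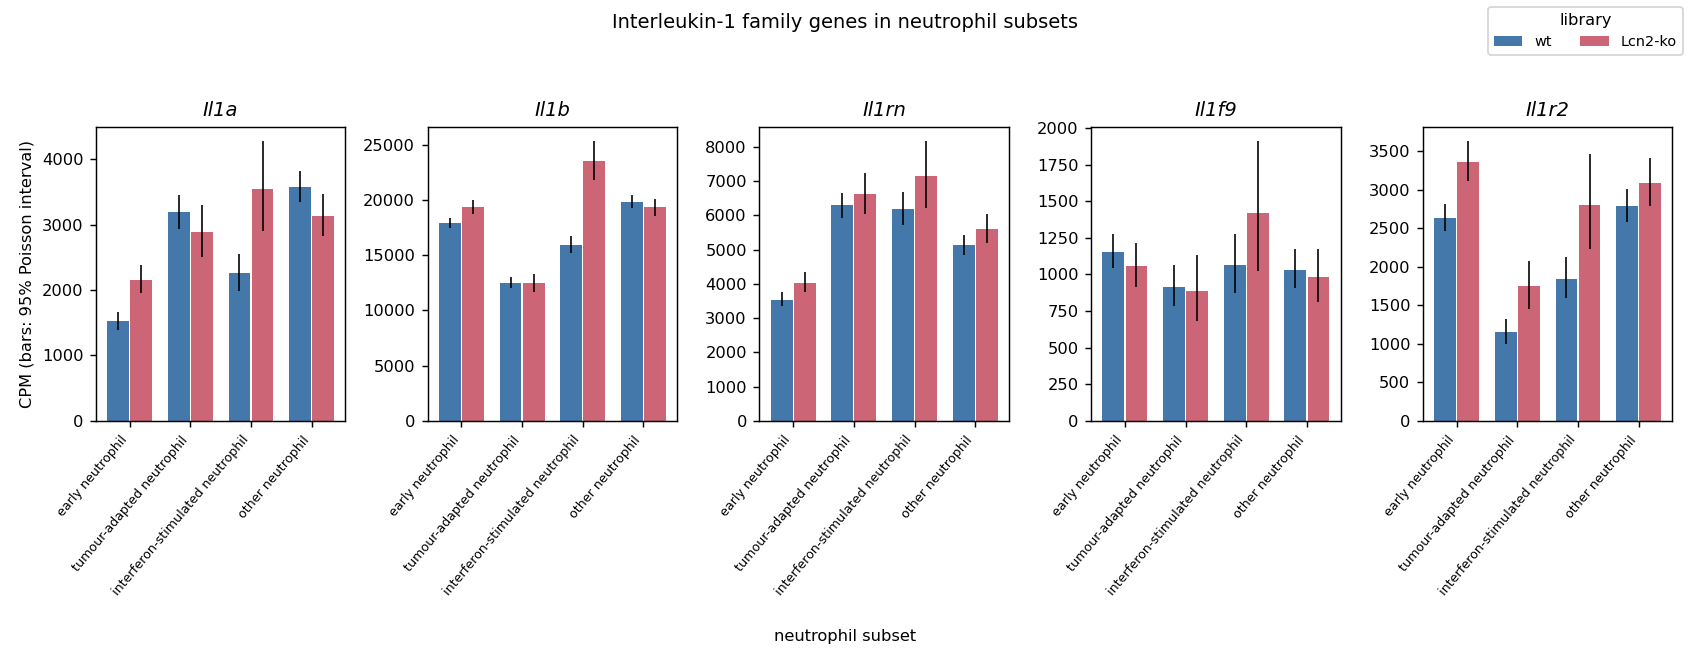
Level in CPM of 5 genes in 4 groups of neutrophils, with bars for the wt library in blue and the Lcn2-ko-labelled library in red, and lines for 95% Poisson intervals. Il1b is lower (12508 and 12479 CPM) and Il1rn higher (6289 and 6608 CPM) in tumour-adapted than in early neutrophils (17919 and 19387 CPM of Il1b, 3539 and 4033 CPM of Il1rn).

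From cell to cell within neutrophils, thinned counts of Il1b and Il1r2 had a Spearman correlation of 0.32 over 482 wt cells and 0.35 over 260 cells of the Lcn2-ko-labelled library. Il1a and Il1rn gave 0.25 in both. In macrophages Il1b and Il1rn gave 0.41 over 293 cells and 0.37 over 304 cells, Il1a and Il1b 0.24 and 0.34, and Il1a and Il1rn 0.21 and 0.25. Cells of 1 library share their capture and free RNA, so these values are descriptions.

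Among T cells, the cytokine receptor genes Il1rl1, Il1r2 and Il18r1 differed by subset. Il1rl1 was highest in regulatory T cells (Foxp3) with the effector marker Klrg1, at 729 and 787 CPM, with UMIs in 31.7% and 36.1% of thinned cells. Regulatory T cells without Klrg1 held 354 and 393 CPM, CD4 helper T cells 182 and 196 CPM, and CD8 T cells 5.89 and 16.0 CPM. Il1r2 had another order: CD4 helper T cells held 597 and 991 CPM, regulatory T cells with Klrg1 335 and 406 CPM, those without 392 and 472 CPM, and CD8 T cells 45.3 and 59.7 CPM. Il18r1 was spread more evenly, from 86.5 and 111 CPM in CD8 T cells to 201 and 210 CPM in CD4 helper T cells. Over the thinned regulatory T cells that held Il1r2, 23.4% and 25.6% also held Il1rl1, against 24.8% and 29.0% of those without Il1r2.

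**Figure D4:**
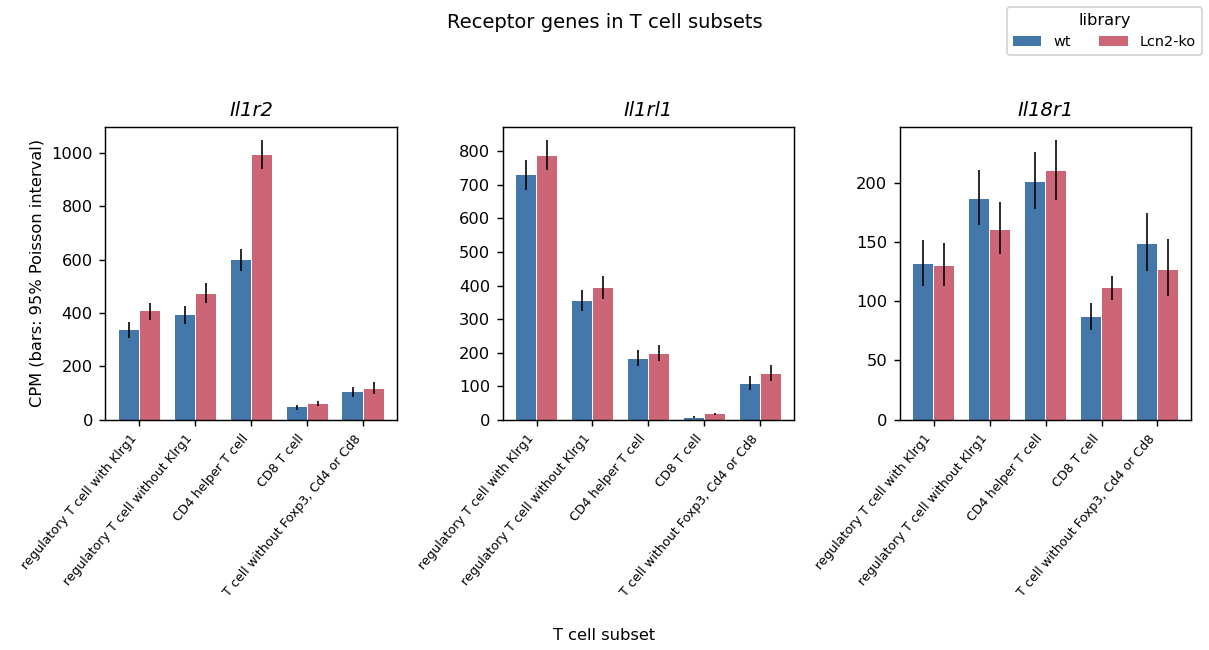
Level in CPM of 3 receptor genes in 5 T cell subsets, with bars for the wt library in blue and the Lcn2-ko-labelled library in red, and lines for 95% Poisson intervals. Il1rl1 is highest in regulatory T cells with Klrg1 (729 and 787 CPM) and Il1r2 in CD4 helper T cells (597 and 991 CPM).

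The comparison of the 2 labels asked whether these genes differed within a class when the marrow was labelled Lcn2-deficient. A gene counted as measured in a class if 1 or both libraries reached 20 CPM, and 52 gene and class pairs were measured. Past a 1.5-fold limit, 5 of them were higher and 6 lower in the Lcn2-ko-labelled library, and 41 lay between. Over all 58967 measured pairs of any gene, 6.98% were higher and 8.17% lower by that rule. The members' shares thus lay near those of all genes. Their median log2 ratio was 0.08.

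In neutrophils, where 13.4% of genes were higher and 11.6% lower, none of the 8 measured members passed 1.5-fold. Il1b had a log2 ratio of 0.11 (0.07 to 0.15), Il1a of 0.08 (-0.02 to 0.19), Il1rn of 0.08 (0.01 to 0.16) and Il1f9 of -0.04 (-0.21 to 0.13). Il1r2 differed most among those counted deeply, at 0.38 (0.28 to 0.49), from 1951 and 1216 UMIs. Within early neutrophils its log2 ratio was 0.35 (0.20 to 0.50), and that of Il1a was 0.50 (0.31 to 0.69). In the neutrophils without a state Il1a lay on the other side, at 3578 and 3139 CPM, or -0.19 (-0.37 to -0.01).

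In macrophages, with a background of 1.84% higher and 2.87% lower, 1 of 6 measured members was called. Il1f9 stood at 38.6 and 20.8 CPM, a log2 ratio of -0.89 (-1.39 to -0.40), and at 0.10 after thinning. The 8 neutrophil markers, all detected in these macrophages, summed to 1046 CPM in wt and 583 CPM in the Lcn2-ko-labelled library, and their part in the Il1f9 value was not tested. Il1b was 4965 and 5844 CPM, a ratio of 0.24 (0.20 to 0.27), while Il1rn, at 1288 and 1273 CPM, had -0.02.

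Among monocytes 11.8% of genes were higher and 13.6% lower, and of 8 measured members 2 were higher and 1 lower. Il1r2 stood at 147 CPM (111 to 190) in wt and 489 CPM (437 to 545) in the Lcn2-ko-labelled library, a log2 ratio of 1.74 (1.33 to 2.17). No wt monocyte held 10 Il1r2 UMIs, while 9 of 180 in the other library did; those 9 held 48.6% of its UMIs and had a median depth of 6386 UMIs against 3457 in the rest. Thinned shares with Il1r2 were 4.42% and 15%. The Cd209a dendritic cell markers, 8 of 8 detected in both, summed to 207 and 316 CPM in these monocytes, and the neutrophil markers, 8 and 7 of 8 detected with Retnlg at 0 in the second library, to 296 and 504 CPM. Their part was not tested. Lcn2 in monocytes was 5.06 and 48.1 CPM, from 2 and 32 UMIs. The other monocyte calls rested on few UMIs, 1 and 14 for Il1rl1 and 8 and 3 for Il18r1. Il1rn in monocytes had a ratio of 0.40 (0.27 to 0.54), under 1.5-fold.

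For Il1b the dendritic classes differed in direction: it was lower in 2 of them, below, and 0.11 (0.04 to 0.19) in the Cd209a class. That last value was at lowest -0.03 over 9 alternatives. In cross-presenting dendritic cells, with a background of 1.5% higher and 2.98% lower, none of 4 measured members was called, but Il1b was lower (-0.41, -0.48 to -0.35) and Il1r2 higher (0.53, 0.29 to 0.76) in the Lcn2-ko-labelled library, both beyond counting error. When classes came from the markers alone, the Il1b value there was -0.05. In Cd209a dendritic cells (9.5% higher, 11.1% lower), 1 of 4 members was higher, Il1rn at 0.74 (0.15 to 1.34), and 1 lower, Il1a at -0.66 (-1.42 to 0.06). A single wt cell held 78.0% of the Il1a UMIs of that class, and a single cell of the other library 48.0%. Without the top cell of each library the Il1a ratio was 0.59. By the markers alone it was 0.64 and that of Il1rn -0.023, and with classes from clusters alone Il1rn was at 0.24, under 1.5-fold. Il1r2 there had a ratio of 0.32 (0.22 to 0.43). In mature dendritic cells (12.8% higher, 14.6% lower), 2 of 5 members were lower, Il1a with 31 and 19 UMIs and Il1f9 with 9 and 1 UMIs, and 1 wt cell held 67.7% of the former. Il1b there was 3667 and 2788 CPM, a ratio of -0.40 (-0.50 to -0.29).

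T cells and tumour or stromal cells, the largest classes, had no calls. In T cells (0.333% higher, 0.667% lower) 5 members were measured, with Il1rl1 at 0.00 and Il1r2 at 0.21 (0.13 to 0.29). In CD4 helper T cells the difference was larger, Il1r2 from 807 and 1307 UMIs giving a log2 ratio of 0.73 (0.60 to 0.86), with thinned shares of 23.4% and 30.3%. T cells with UMIs of Cd8a or Cd8b1 together with Cd4 or Foxp3, 141 and 178 cells, lay on the other side, with Il1r2 at 409 and 254 CPM, or -0.69 (-0.97 to -0.41). Both of these Il1r2 values passed 1.5-fold, as did other members in T cell subsets, in both directions. The share of all genes past that limit was computed for whole classes only, so subset values have no such background. Over all T cells, those with at least 10 Il1r2 UMIs numbered 32 and 64 and held 24.5% and 33.1% of its UMIs. In tumour or stromal cells (0.432% higher, 0.566% lower) 5 members were measured. Il1r1 had -0.10 (-0.19 to -0.02) and Il18r1 -0.31 (-0.43 to -0.19). Il1rn had 0.24 (0.13 to 0.35) and Il1b 0.37 (0.19 to 0.55). The Il1b value ran from -0.17 to 0.42 over 9 alternatives. Tumour or stromal cells with at least 10 Il1b UMIs, 3 and 2 of them, held 16.6% and 15.2% of its UMIs in the class. In NK cells (6.86% higher, 8.18% lower) neither of the 2 measured members was called.

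In mast cells or basophils (14.5% higher, 18.1% lower), 2 of 5 measured members were higher and 1 lower. Il1b was 223 and 434 CPM, a ratio of 0.96 (0.56 to 1.36). In each library 3 cells held 65.6% and 77.8% of those UMIs, at median depths of 1832 and 1965 against 5401 and 5190.5 in the rest. With Mcpt8, Il1b stood at 1642 and 2039 CPM, and without it at 66.6 and 79.9 CPM, so the cells with Mcpt8, 10 of 74 and 12 of 55, carried most of it. Il1rl1 had -0.05 (-0.18 to 0.09). The other 2 calls, Il1r2 from 11 and 15 UMIs and Il1rn from 13 and 4, had intervals that hold 0.

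**Figure D5:**
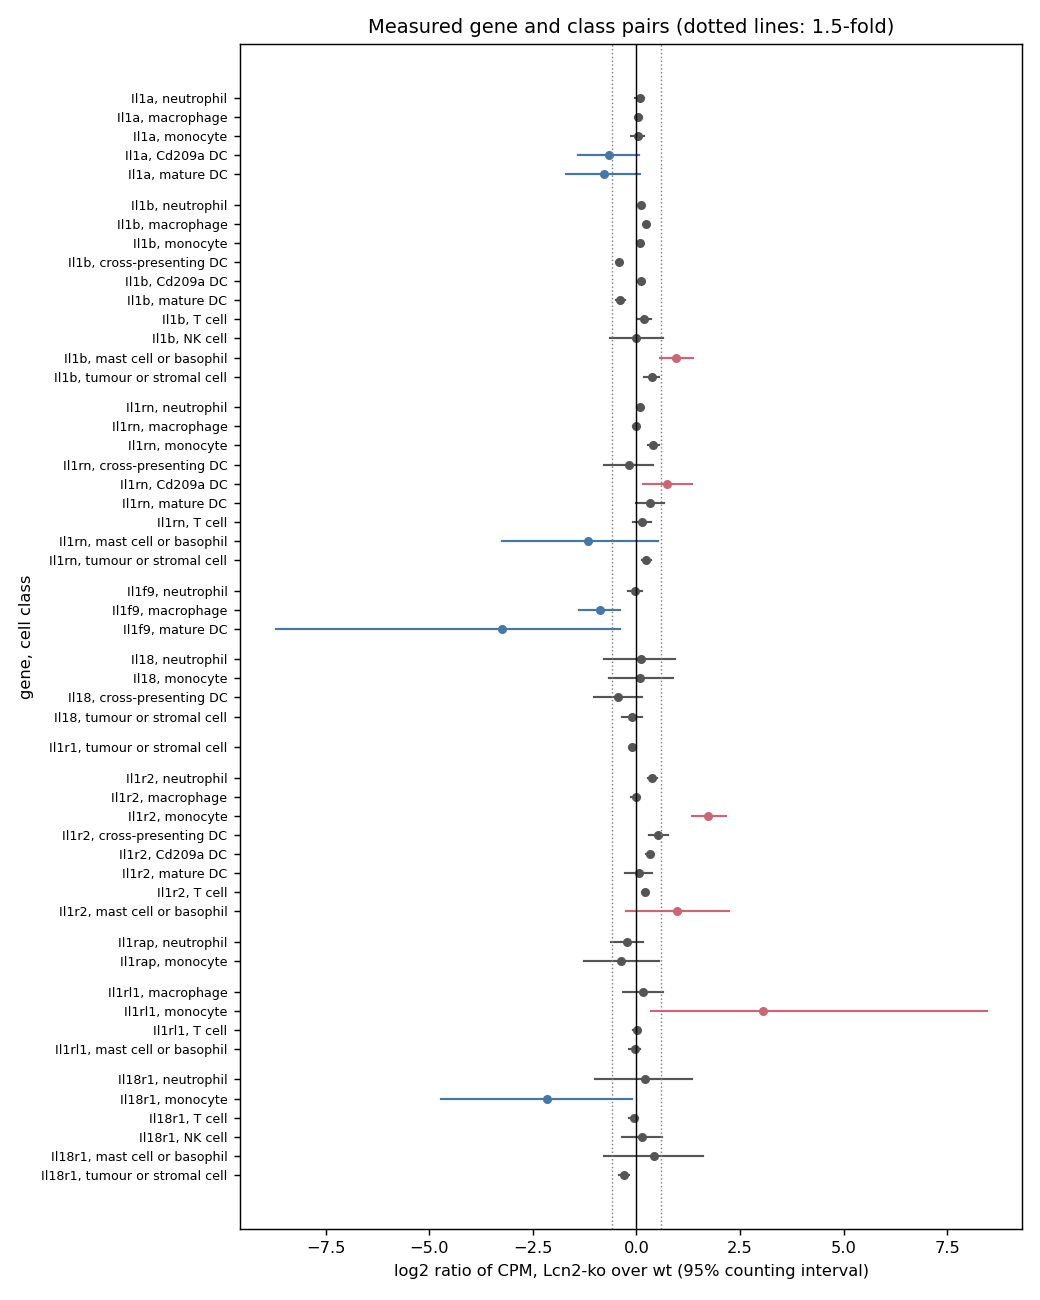
Log2 ratio of CPM in the Lcn2-ko-labelled library over wt for the 52 measured gene and class pairs, with lines for 95% counting intervals; red marks at least 1.5-fold higher, blue at least 1.5-fold lower, and dotted lines 1.5-fold. Il1r2 in monocytes lies at 1.74, and the widest intervals belong to Il1rl1 in monocytes (1 and 14 UMIs) and Il1f9 in mature dendritic cells (9 and 1 UMIs).

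Other genes of the pathway were described from 4 lists. Over all genes measured in neutrophils, 13.4% were higher and 11.6% lower, and the neutrophil counts of each list are to be read beside these shares. Of 14 genes for processing and release, 8 were measured in neutrophils, none higher and 1 lower. Their median log2 ratio was 0.09 beside 0.02 over all measured genes. Nlrp3, the sensor of the inflammasome that activates caspase-1, was the most abundant, at 6465 and 7460 CPM in neutrophils and 1090 and 1440 CPM in macrophages. Of 16 signalling genes, 11 were measured in neutrophils, 1 higher and 1 lower. The lower one, Irak3, which restrains IL-1 receptor signalling, was 84.7 and 36.5 CPM (-1.22, -2.13 to -0.40), from 73 and 15 UMIs. In tumour or stromal cells, where 0.432% of all genes were higher and 0.566% lower, 13 signalling genes were measured and none was called. In monocytes, where 11.8% of all genes were higher and 13.6% lower, 1 of 11 processing genes was higher and 1 lower. Of 13 signalling genes in monocytes 2 were higher and 1 lower, and of 14 induced genes 2 were higher and 1 lower. The list of induced genes includes Lcn2 itself, the gene named in the label, which was 1 of those 2 higher genes. Of 16 genes known to be induced by IL-1, 12 were measured in neutrophils and 1 was higher, Icam1 at 337 and 673 CPM (1.00, 0.76 to 1.24). In macrophages, where 1.84% of all genes were higher and 2.87% lower, 1 of 12 was lower, Il6 at 102 and 36 CPM (-1.50, -1.86 to -1.16). In tumour or stromal cells 1 of 12 was higher, again Il6, at 28.5 and 50.4 CPM (0.83, 0.64 to 1.01). In mature dendritic cells 1 of 12 was higher and 5 lower, where 12.8% and 14.6% of all genes were, with a median of -0.40 beside 0.00 over all measured genes, and in the mast class 4 of 11 were higher and 1 lower, where 14.5% and 18.1% of all genes were. Of 14 other family genes, 11 are in the table and at most 3 were measured in any class; Il33, the ligand of ST2, stood at 353 and 317 CPM in tumour or stromal cells.

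Across the 10 compared classes of both libraries, 20 points that share libraries and depth, the genes with profiles most like a member were found by Pearson correlation of log2(CPM + 10) among 5600 genes. For Il1a they were Clec4e (0.98), Sirpb1c (0.97) and Clec5a (0.97), for Il1b Csf2ra (0.97), Cdkn1a (0.95) and Ptafr (0.95), and for Il1rn Msrb1 (0.96), Cd14 (0.96) and Slc7a11 (0.96). Il1f9 was nearest to Stfa2l1 (0.99), G0s2 (0.99, a neutrophil marker of the gate) and Asprv1 (0.99), and Il1rap to Dnajb9 (0.96), Map2k4 (0.94) and Rybp (0.94). Il1rl1 was nearest to Il13 (0.98), Calca (0.96) and Ccl1 (0.95), and Il1r1 to Slco2a1 (0.96), Cav1 (0.96, a marker of the gate) and Amotl1 (0.96). Lower values were found for Il1r2 with Alcam (0.90), Snx20 (0.89) and Slc15a3 (0.85), for Il18 with Plin2 (0.90), Slc31a1 (0.89) and Ifi204 (0.89), and for Il18r1 with Prkar1a (0.91), Phf3 (0.91) and Cers4 (0.91).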

How the data were processed

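Single-cell RNA of CD45+ cells sorted from MB49 tumours was measured in 2 libraries, 1 per genotype label. The deposited matrices hold raw counts, UMIs per gene and cell barcode; Cell Ranger and mm10 are named per the submitters' processing notes, with versions not given in the sources used here. No barcode had fewer than 501 UMIs. Barcodes were kept with at least 200 genes (82 wt and 46 of the Lcn2-ko-labelled library fell short) and at most 20% mitochondrial UMIs (262 and 241 exceeded it). The limit chosen by Scrublet marked 0 cells, so the top 4% of its scores were left out, 319 and 312 barcodes.

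A cell entered a class with at least 3 of 8 markers, at least 1 more than for any other class, no Ptprc UMI for tumour or stromal cells, and a Leiden cluster of the same name, except that monocytes were taken from clusters named macrophage, since none was named monocyte (scanpy 1.11.5, leidenalg 0.10.2, igraph 0.11.9; 2000 variable genes without the interleukin-1 family genes, 30 components, 15 neighbours, resolution 1, 25 clusters). The cluster condition was added after seeing the data; 93.9% of cells gated by markers met it, from 62.3% of mature dendritic cells to all B, mast and tumour or stromal cells. Classes with 50 cells in each library were compared. UMI sums were scaled to CPM; intervals came from scipy 1.17.1. A count of 0 was read as allowing 3 counts. Ratios were checked on simulated Poisson counts drawn from the wt class sums. Such counts hold no clumping of UMIs in single cells, so that check covers counting error only.

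The members and lists were chosen with earlier results of these data known. All 10 members are named, with the 3 genes most like each and, from each pathway list in a class, at most the highest, the lowest and the most abundant gene. The lists were other interleukin-1 family genes, processing and release, signalling, and genes induced by IL-1, the last with Lcn2 among them. Alternatives covered class definition, doublets, mitochondrial limit, thinning, weights of cells, scaling, low-value limits and single cells. Gene positions came from GENCODE for mm10.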

Additional observations from a re-analysis of the deposited data

Results flagged for a closer look

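The Il1b ratio differed in direction between cell classes. In mast cells or basophils the log2 ratio of the Lcn2-ko-labelled library over wt was 0.96, and in cross-presenting dendritic cells it was -0.41. Both counting intervals exclude 0, on opposite sides, and the difference between the classes was not tested, since there was 1 library per label. In the mast class 3 cells of each library held 65.6% and 77.8% of the 93 and 126 Il1b UMIs, and the interval does not cover such clumping. By the marker gate alone the value in cross-presenting dendritic cells was -0.05.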

How the results depend on the processing

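Of 453 recomputed ratios of a gene in a class, 405 stayed within the counting interval of the reported value, 43 moved beyond it and 5 reversed. Only pairs past 1.5-fold could count as reversed, and a wide interval holds large moves. Other pairs changed sign too, such as Il1b in tumour or stromal cells (0.37, at lowest -0.17) and Il18r1 in mast cells or basophils (0.42, at lowest -1.16). Reversals were Il1rn in mast cells or basophils with doublets kept (0.13), Il1f9 in macrophages after thinning (0.10), Il1a in Cd209a dendritic cells without the top cell (0.59) and by the marker gate alone (0.64), and Il1rn there by the marker gate alone (-0.023). The marker gate alone was chosen after seeing the data. The 5 pairs at least 1.5-fold higher became 13 after thinning, 8 with 20 UMIs as the limit for a measured gene and 8 by the marker gate alone. The 6 lower pairs became 3 with classes from clusters alone, 11 after thinning, and 2 with means over cells, with 50 CPM as the limit and without the top cell. Each member had 1 class that was highest in both libraries; this held for 8 of 10 with classes from clusters alone, and for 9 without mitochondrial and ribosomal protein UMIs and by the marker gate alone. Il1r2 in monocytes kept its direction, from 1.52 to 2.65 over 8 alternatives, and Il1b in mast cells or basophils from 0.46 to 1.86 over 9. Members with few UMIs limit the rest. No paired analysis was possible because each label had 1 library, and no library could be left out.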
